A study of Oryza sativa with 24 samples.

Results

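OsPHO1-3 (Os06g29790, also written PHO1;3) and SPX-MFS2 (Os02g45520) are 2 rice genes whose proteins carry an SPX domain and belong to families that move inorganic phosphate (Pi) across membranes. They were chosen by name, and their identifiers were looked up in the differential expression table that accompanies the study. That table pairs each identifier with a single probe set, and the platform annotation adds no other for either gene. The account thus rests on 2 of 57258 probe sets (chromosome 6 for OsPHO1-3 and chromosome 2 for SPX-MFS2, by locus identifier). The entries of that table at hand all rise in Dular roots at low Pi. A rise in Dular roots was therefore fixed by the look-up, and it is described without a test.

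The SPX domain binds inositol pyrophosphates, whose level in the cell follows its phosphate status. PHO1 proteins export Pi, and in Arabidopsis PHO1 loads it into the xylem for transport from root to shoot. Proteins with an SPX and an MFS (major facilitator superfamily) domain sit in the membrane of the vacuole, the main store of Pi in a plant cell, and move Pi into or out of it. In rice, transcripts of SPX-MFS1 and SPX-MFS2 are targets of the microRNA miR827, which rises under Pi starvation.

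Seedlings of Dular, a traditional rice genotype tolerant to low Pi, and of PB1 (Pusa Basmati-1), a modern sensitive one, were kept in hydroponics for 15 days with Pi at 320 µM (+Pi) or 1 µM (−Pi). Roots and shoots were profiled separately on 24 Affymetrix arrays, 3 biological replicates for each of 8 groups, and every RNA sample pooled tissue of 3 seedlings. In such bulk tissue, fewer cells of a type and less RNA per cell cannot be told apart. Values are log2 signals that the authors centred on each probe set's median over the arrays. A value of 0 is thus that median and not an absence of signal, and levels of different genes cannot be compared.

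The 4 tissue markers with a probe set, each taken by its first, did not overlap between root and shoot arrays. For CAB2R the gap was narrow, with roots up to -0.0018 and shoots from 0.0018. Another probe set of RBCS-C did overlap. The silicon transporter gene Lsi1 was at 2.68 to 3.52 on the 12 root arrays and at -5.13 to -2.68 on the 12 shoot arrays. The Rubisco small subunit gene RBCS-C was at -4.47 to -1.18 in roots and at 1.18 to 1.9 in shoots. PB1 shoots at −Pi were the least uniform group, with a mean correlation between replicate arrays of 0.695 against 0.889 to 0.953 in the other groups. These correlations were taken on the median-centred values, which lack the differences in level between probe sets. They cannot be set against correlations of uncentred signals. BioB, a spiked control for hybridization, was brighter on Dular than on PB1 root arrays by 4.95 at +Pi and 4.70 at −Pi (log2), while BioC, BioD and Cre differed by at most 0.534. Within PB1, BioB was at -5.26 (+Pi) and -4.91 (−Pi) in roots relative to shoots. Its part in comparisons of PB1 roots with Dular roots or PB1 shoots was not tested.

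The only sequences at hand for these genes are the primers that the study designed to measure OsPHO1-3 by quantitative PCR. They are shown, 5′ to 3′ and in lower case throughout because no part is singled out, to identify the transcript.
OsPHO1-3 forward primer: agacctgcaaggtgagagga
OsPHO1-3 reverse primer: ctgccagtagtccacgaagg

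OsPHO1-3 transcripts were more abundant at −Pi than at +Pi in roots and shoots of both genotypes. In Dular roots the values were -3.96, -4.88 and -4.88 at +Pi and 0.63, 0.99 and 0.77 at −Pi. In PB1 roots they were -4.61, -4.62 and -4.40 at +Pi and 0.50, 0.64 and 0.18 at −Pi. In either genotype every −Pi root array lay far above every +Pi root array, and the genotypes' values as deposited lay side by side. After quantile normalization, Dular minus PB1 in roots at +Pi was 1.17 (log2). No level over background is given, so how dim the +Pi root signal was is not known. In Dular shoots the gene was at -2.49, -4.50 and -3.19 at +Pi and at 1.46, 1.65 and 1.72 at −Pi. In PB1 shoots it was at -0.75, -1.45 and -0.18 at +Pi and at 1.02, 2.12 and 1.01 at −Pi. The groups did not overlap in shoots either, but PB1 shoots started from a higher level at +Pi than the other +Pi groups.

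**Figure D1:**
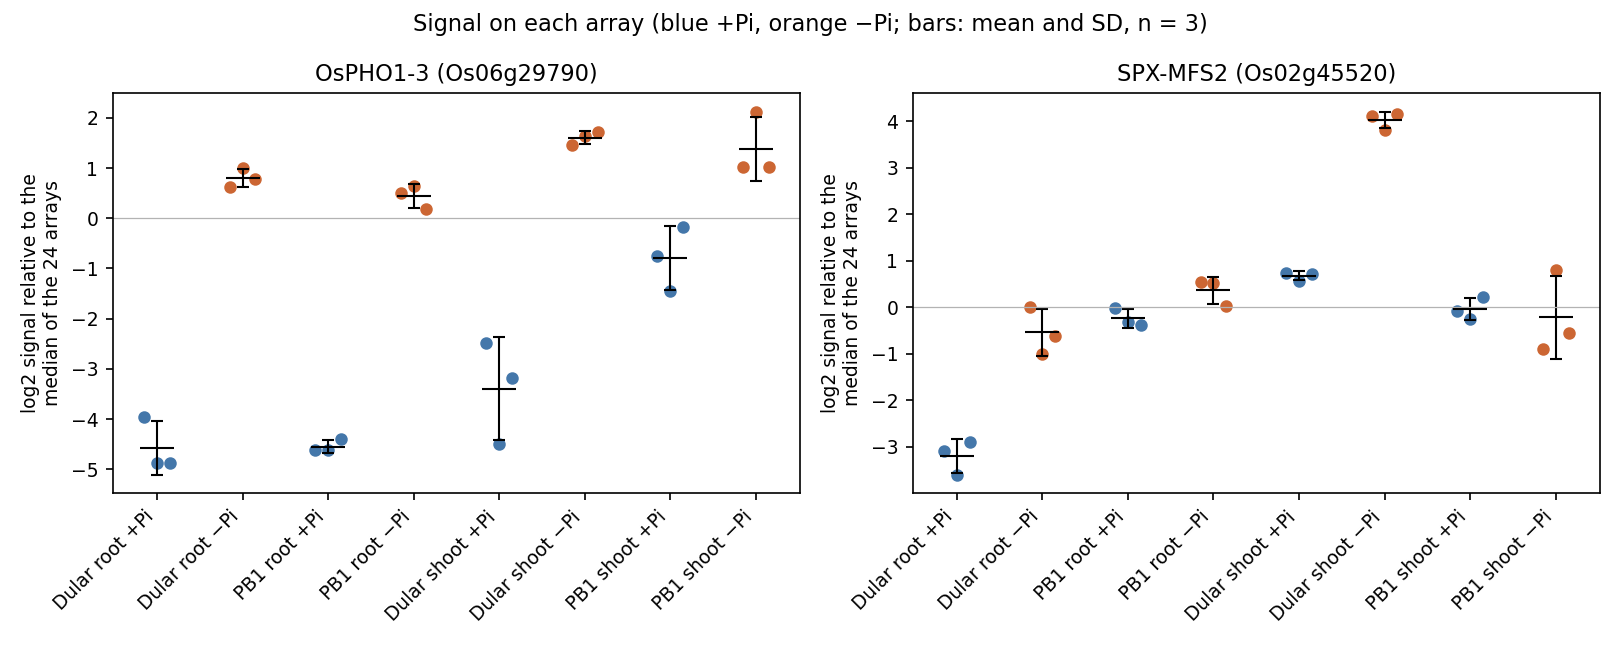
log2 signal of OsPHO1-3 (left) and SPX-MFS2 (right) on each of the 24 arrays, relative to the probe set's median, by genotype, tissue and Pi level (points: arrays, bars: mean and SD, n = 3). OsPHO1-3 is higher at −Pi in all 4 pairs of groups, and SPX-MFS2 reaches its highest values, 3.83 to 4.16, in Dular shoots at −Pi.

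As fold changes, OsPHO1-3 rose 31.7-fold at −Pi in roots of PB1 (log2 4.99 ± 0.42 SE, limma adjusted p = 3.63e-07). In Dular shoots it rose 32.0-fold (log2 5.0 ± 0.42 SE, limma adjusted p = 1.04e-06). The rise in PB1 shoots was 4.53-fold (log2 2.18 ± 0.42 SE, limma adjusted p = 0.00528). This call was lost when the spread was taken from shoot arrays alone (adjusted p = 0.0916) or from the compared groups alone (adjusted p = 0.180), with the same estimate. In Dular roots the change was 41.5-fold (log2 5.37 ± 0.42 SE), which is given as a description.

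A change counted as called when it reached 2-fold and its adjusted p did not exceed 0.05. Of all probe sets, 2.55% were called higher at −Pi in PB1 roots, 1.16% in shoots of Dular and 0.603% in shoots of PB1. Ranked by log2 change, OsPHO1-3 was number 42 of 57258 in PB1 roots, number 17 in Dular shoots and number 181 in PB1 shoots. OsPHO1-3 was called in each of these 3 comparisons. SPX-MFS2 was called in 1 of them, Dular shoots. These calls make no allowance for the look-up in a table of genes affected by low Pi. In Dular roots, where the look-up fixed the rise, both genes passed the rule, as did 4.12% of probe sets.

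SPX-MFS2 showed a different pattern in shoots, with a called rise in Dular and none in PB1. In roots no rise was called in PB1, and the look-up fixed the rise in Dular. Its values in Dular roots were -3.09, -3.59 and -2.90 at +Pi and 0.00, -1.0 and -0.61 at −Pi. In PB1 roots they were -0.00, -0.31 and -0.38 at +Pi and 0.55, 0.53 and 0.03 at −Pi. Dular roots at +Pi thus stood alone at the bottom, and their −Pi arrays came up to near the PB1 levels. In Dular shoots the values were 0.74, 0.57 and 0.73 at +Pi and 4.11, 3.83 and 4.16 at −Pi. In PB1 shoots they were -0.07, -0.26 and 0.22 at +Pi and -0.89, 0.80 and -0.54 at −Pi. The 3 Dular shoot −Pi arrays were far above all others, and the PB1 shoot −Pi arrays lay on either side of their +Pi arrays.

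The rise of SPX-MFS2 in Dular shoots was 10.2-fold (log2 3.35 ± 0.33 SE, limma adjusted p = 6.38e-06), number 59 among all probe sets. In PB1 roots the change of 0.60 ± 0.33 (log2, SE) missed the threshold (limma adjusted p = 0.205, 95% interval -0.10 to 1.31). In PB1 shoots it was -0.18 ± 0.33 (log2, SE; limma adjusted p = 0.773, 95% interval -0.88 to 0.53). A change of 2-fold in PB1 roots is within the first interval, and a 2-fold rise or fall in PB1 shoots lies outside the second. Since limma's SE rests on 1 spread per probe set for all groups, the second interval can be too narrow. The SD of SPX-MFS2 was 0.89 in PB1 shoots at −Pi, against 0.09 to 0.51 in the other groups. With an array left out, its change in PB1 shoots was -0.68 to 0.16 (log2). In Dular roots SPX-MFS2 changed by 6.31-fold (log2 2.66 ± 0.33 SE, given as a description).

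Whether the genotypes' responses differed was tested as the difference of the log2 changes, Dular minus PB1. In shoots, the response of SPX-MFS2 was larger in Dular by 3.53 ± 0.47 (log2, SE; limma adjusted p = 6.00e-04). The response of OsPHO1-3 was larger in Dular shoots by 2.82 ± 0.60 (log2, SE; limma adjusted p = 0.0142). By the adjusted p alone, 2.06% of probe sets had a larger response in Dular shoots. The call of OsPHO1-3 was lost when shoot arrays were fitted by themselves (adjusted p = 0.146), where that of SPX-MFS2 was not. In roots the difference was 2.06 ± 0.47 for SPX-MFS2 and 0.39 ± 0.60 for OsPHO1-3 (log2, SE, 95% interval -0.88 to 1.65), and the latter was -0.86 after quantile normalization. These root differences contain the Dular root rise that the look-up fixed, and are therefore given without a test.

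**Figure D2:**
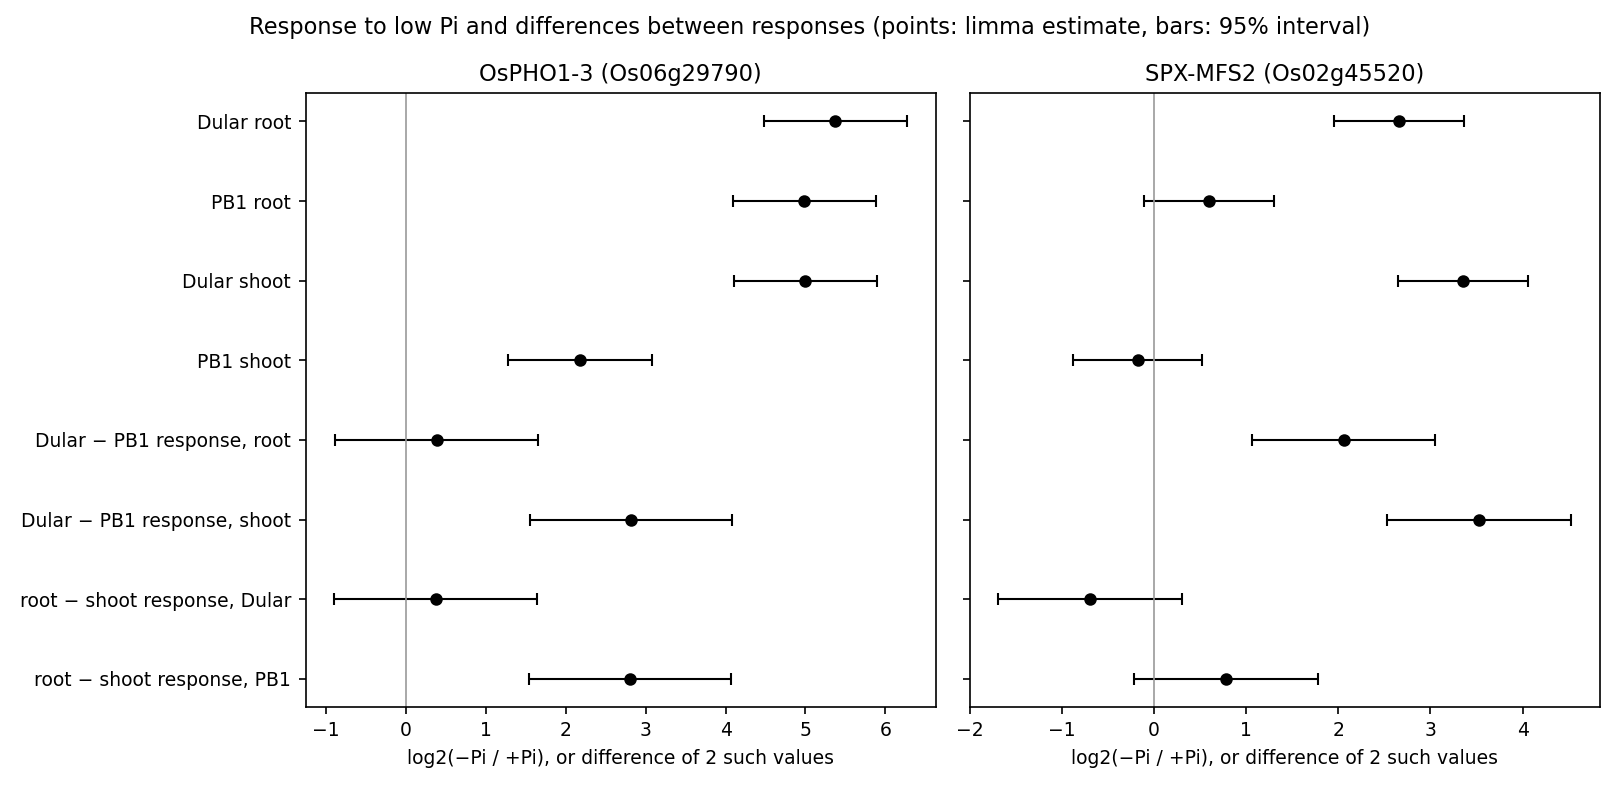
Response to low Pi as log2(−Pi/+Pi) in each genotype and tissue, and differences between responses, for OsPHO1-3 (left) and SPX-MFS2 (right). Points are limma estimates and bars their 95% intervals. The intervals of SPX-MFS2 in PB1 roots and shoots include 0, and those of OsPHO1-3 exclude 0 in all 4 settings. For both genes the look-up fixed the rise in Dular roots.

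The tissues were set against each other in the same way. In PB1, OsPHO1-3 responded more strongly in roots than in shoots, by 2.81 ± 0.60 (log2, SE; limma adjusted p = 0.00984), where 1.63% of probe sets had a larger response in roots. For SPX-MFS2 the same difference in PB1 was 0.78 ± 0.47 (limma adjusted p = 0.560), and it was 1.28 (adjusted p = 0.0442) without PB1 shoot −Pi replicate 2. In Dular, root minus shoot response was 0.38 ± 0.60 for OsPHO1-3 and -0.69 ± 0.47 for SPX-MFS2 (log2, SE, given without a test for the same reason as above). After quantile normalization these were -1.16 and -1.72.

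Genotype differences in level lay in other groups for each gene. OsPHO1-3 was 6.05-fold lower in Dular than in PB1 shoots at +Pi (log2 -2.60 ± 0.42 SE, limma adjusted p = 1.52e-04, no overlap of arrays), where 5.35% of probe sets were lower in Dular. With the compared groups alone its adjusted p was 0.0551. At −Pi its levels in shoots overlapped, with log2(Dular/PB1) of 0.22 ± 0.42 (limma adjusted p = 0.809). With the values as deposited, the ratio in roots was -0.03 ± 0.42 at +Pi and 0.36 ± 0.42 at −Pi (log2, SE). After quantile normalization the value in roots at +Pi was 1.17. The look-up bears on the levels in Dular roots, and these root values are given without a test. In shoots the difference at +Pi was thus called and that at −Pi was not. The arrays behind the called difference were spread, from -4.50 to -2.49 in Dular.

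SPX-MFS2 was 7.80-fold lower in Dular than in PB1 roots at +Pi (log2 -2.96 ± 0.33 SE), where 7.69% of probe sets were lower in Dular. At −Pi the root difference was -0.91 ± 0.33, under 2-fold. It was -1.18 without Dular root −Pi replicate 1, -1.07 without PB1 root −Pi replicate 3 and -1.06 with array weights. The look-up fixed the rise in Dular roots and so bears on the levels there. These root differences are therefore given without a test. In shoots the direction was the opposite. At −Pi, SPX-MFS2 was 19.0-fold higher in Dular (log2 4.24 ± 0.33 SE, limma adjusted p = 2.65e-08), where 5.9% of probe sets were higher in Dular. At +Pi the shoot difference of 0.71 ± 0.33 did not pass (limma adjusted p = 0.167), although the arrays did not overlap.

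**Figure D3:**
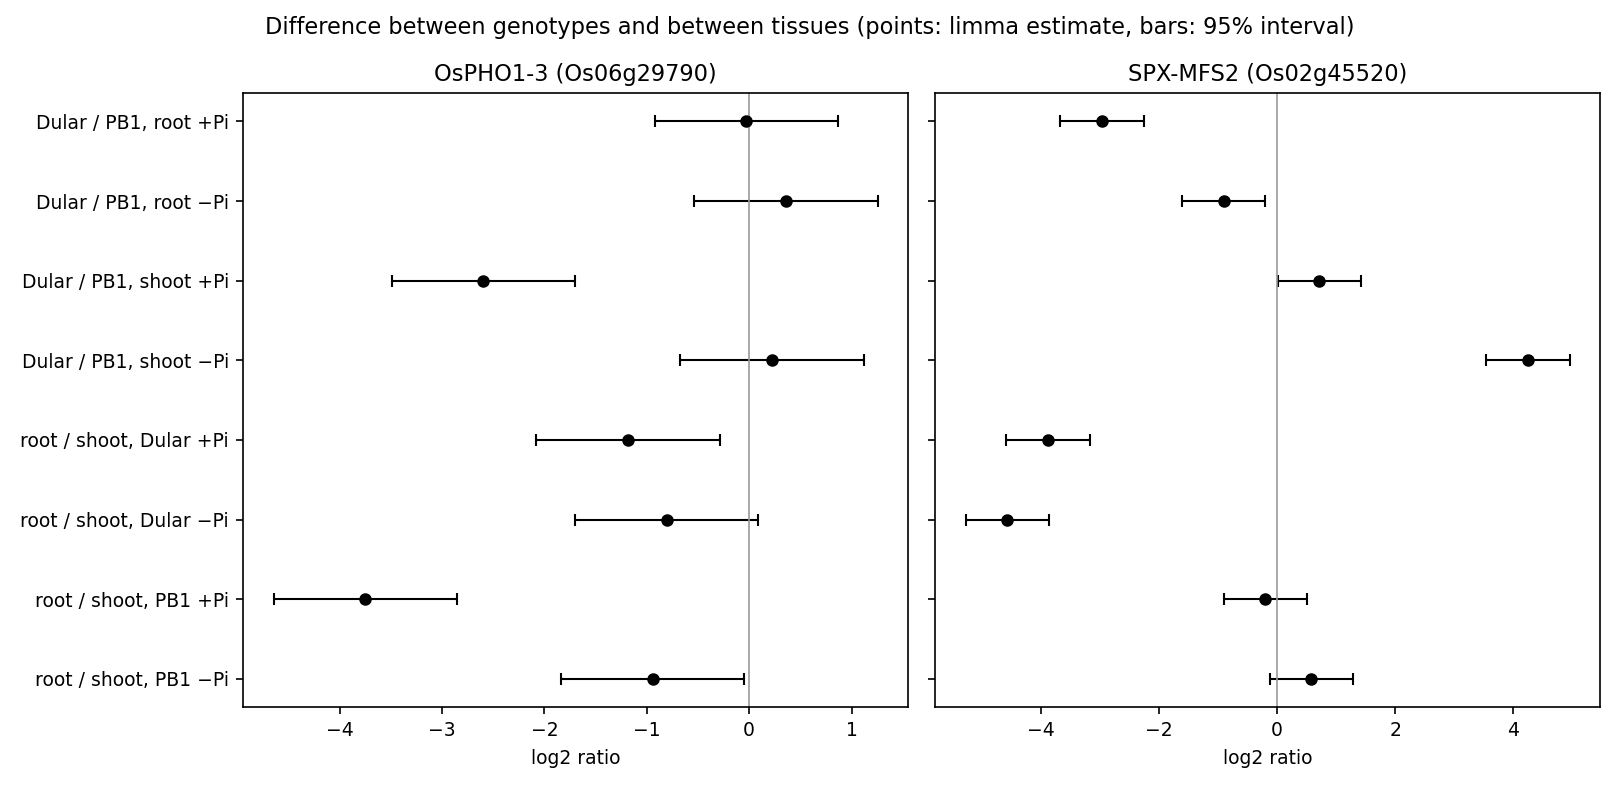
log2 ratios of Dular to PB1 in each tissue and Pi level, and of root to shoot in each genotype and Pi level, for OsPHO1-3 (left) and SPX-MFS2 (right). Points are limma estimates and bars their 95% intervals; SPX-MFS2 is at -2.96 in roots at +Pi and at 4.24 in shoots at −Pi, opposite sides of 0.

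Between tissues, SPX-MFS2 was 14.7-fold lower in Dular roots than in Dular shoots at +Pi (log2 -3.88 ± 0.33 SE). At −Pi it was 23.7-fold lower in Dular roots (log2 -4.57 ± 0.33 SE). Both values are given without a test, since the look-up bears on the levels in Dular roots. In PB1 neither difference passed, with root minus shoot values of -0.20 ± 0.33 at +Pi (adjusted p = 0.743) and 0.58 ± 0.33 at −Pi (limma adjusted p = 0.252). The latter was 1.09 (adjusted p = 0.00322) without PB1 shoot −Pi replicate 2, which is the highest of its group. In Dular, 8.84% of probe sets were lower in roots at +Pi and 8.31% at −Pi.

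OsPHO1-3 was 13.5-fold lower in roots than in shoots of PB1 at +Pi (log2 -3.75 ± 0.42 SE, limma adjusted p = 1.15e-06), where 7.82% of probe sets were lower in roots. In Dular at +Pi the value was -1.18 ± 0.42 (log2, SE), but the arrays overlapped. The look-up bears on the levels in Dular roots, and the value is given without a test. After quantile normalization it was 0.024, so that no direction holds there. At −Pi the root minus shoot value in PB1 was -0.94 ± 0.42 (limma adjusted p = 0.117), which did not pass. In Dular at −Pi it was -0.81 ± 0.42, given without a test for the same reason.

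Placed in order, the mean level of OsPHO1-3 was highest in Dular shoots at −Pi (1.61 ± 0.13, SD, n = 3) and PB1 shoots at −Pi (1.39 ± 0.64), whose arrays overlapped. Dular roots (0.80 ± 0.18) and PB1 roots (0.44 ± 0.24) at −Pi followed and also overlapped. PB1 shoots at +Pi (-0.79 ± 0.64) came next, apart from the neighbours on either side. Dular shoots (-3.39 ± 1.02), PB1 roots (-4.55 ± 0.12) and Dular roots (-4.58 ± 0.53) at +Pi closed the order, each overlapping the next. The 4 −Pi groups thus filled the upper places.

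For SPX-MFS2 the order was not by Pi level. Dular shoots at −Pi (4.03 ± 0.18, SD, n = 3) stood 3.35 above Dular shoots at +Pi (0.68 ± 0.09). The latter did not overlap PB1 roots at −Pi, the next in order, but lay below the highest PB1 shoot −Pi array. PB1 roots at −Pi (0.37 ± 0.29), PB1 shoots at +Pi (-0.03 ± 0.24), PB1 shoots at −Pi (-0.21 ± 0.89), PB1 roots at +Pi (-0.23 ± 0.20) and Dular roots at −Pi (-0.54 ± 0.51) formed a run in which neighbours overlapped. Dular roots at +Pi (-3.19 ± 0.36) lay 2.66 below the last of these and overlapped no group. All 4 PB1 groups were in that middle run.

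The genes whose signal followed OsPHO1-3 most closely were sought among 14332 probe sets with 1 gene and group means spanning at least 1 on the log2 scale. Likeness is Pearson's r over the 24 arrays, which share the 8 groups, and is a description. The closest was Os03g51150, an expressed protein (r = 0.941), followed by Os08g33640 (r = 0.940), Os08g33710, a ribonuclease of the T2 family (r = 0.932), Os09g26670 (r = 0.925) and Os10g25000 (r = 0.915). Os09g26670, annotated as an expressed protein, had changes close in size to those of OsPHO1-3, with log2(−Pi/+Pi) of 5.10 in roots of Dular, 5.0 in roots of PB1, 4.49 in shoots of Dular and 2.60 in those of PB1. Like OsPHO1-3, it changed least in PB1 shoots, as did Os03g51150 and Os08g33710. Os08g33640 changed least in PB1 roots (2.06) and Os10g25000 in Dular shoots (2.56). A similar pattern is part of how these genes were picked.

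The nearest genes to SPX-MFS2 were less close. They were SERL2, a receptor-like kinase gene (r = 0.890), the aspartokinase gene Os03g63330 (r = 0.871), Os12g05050, annotated as the stem-specific protein TSJT1 (r = 0.870), Os03g62370 with WD40-like repeats (r = 0.862) and LOC4343018 (r = 0.860). SERL2 changed by 0.79 in Dular roots and 1.18 in Dular shoots, and by 0.01 and -0.04 in PB1 roots and shoots (log2). Not all were like it: Os12g05050 changed by 1.10 in PB1 roots, and LOC4343018 by 0.09 in Dular shoots.

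The PHO1 family has 1 further gene on the array, OsPHO1-2, which in rice moves Pi from root to shoot. By its first probe set it was called higher in roots than in shoots in both genotypes at either Pi level. So were 7.35% (+Pi) and 8.45% (−Pi) of probe sets in Dular and 8.26% and 9.12% in PB1. In Dular roots OsPHO1-2 was at 1.56, 1.74 and 1.39 at +Pi and at 2.28, 2.31 and 2.37 at −Pi, and in Dular shoots at -4.40, -3.80 and -4.32 at +Pi and at -2.13, -2.17 and -1.85 at −Pi. Root arrays of Dular were thus above its shoot arrays, and −Pi arrays above +Pi arrays in both tissues. The root excess in Dular at +Pi was 53.4-fold (log2 5.74 ± 0.17 SE, limma adjusted p = 2.48e-14). At −Pi, OsPHO1-2 rose 4.36-fold in Dular shoots (log2 2.12 ± 0.17 SE, limma adjusted p = 4.56e-07). Its change was 0.76 ± 0.17 in Dular roots, under 2-fold (adjusted p = 0.00331), and -0.05 ± 0.17 in PB1 roots (limma adjusted p = 0.869). In PB1 shoots it was 0.51 ± 0.17 (limma adjusted p = 0.104). The response in shoots was larger in Dular than in PB1 by 1.61 ± 0.24 (log2, SE; limma adjusted p = 0.00129), and log2(Dular/PB1) in shoots at +Pi was -1.98 ± 0.17 (adjusted p = 9.73e-08), the same direction as for OsPHO1-3. The other 2 probe sets of OsPHO1-2 were called in none of the 4 Pi comparisons, with log2 changes of -0.22 to 0.03. They were also called in no comparison of tissues, genotypes or responses. PHO1-1, SPX-MFS1 and SPX-MFS3 had no probe set that could be paired with them and were not analysed here.

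**Figure D4:**
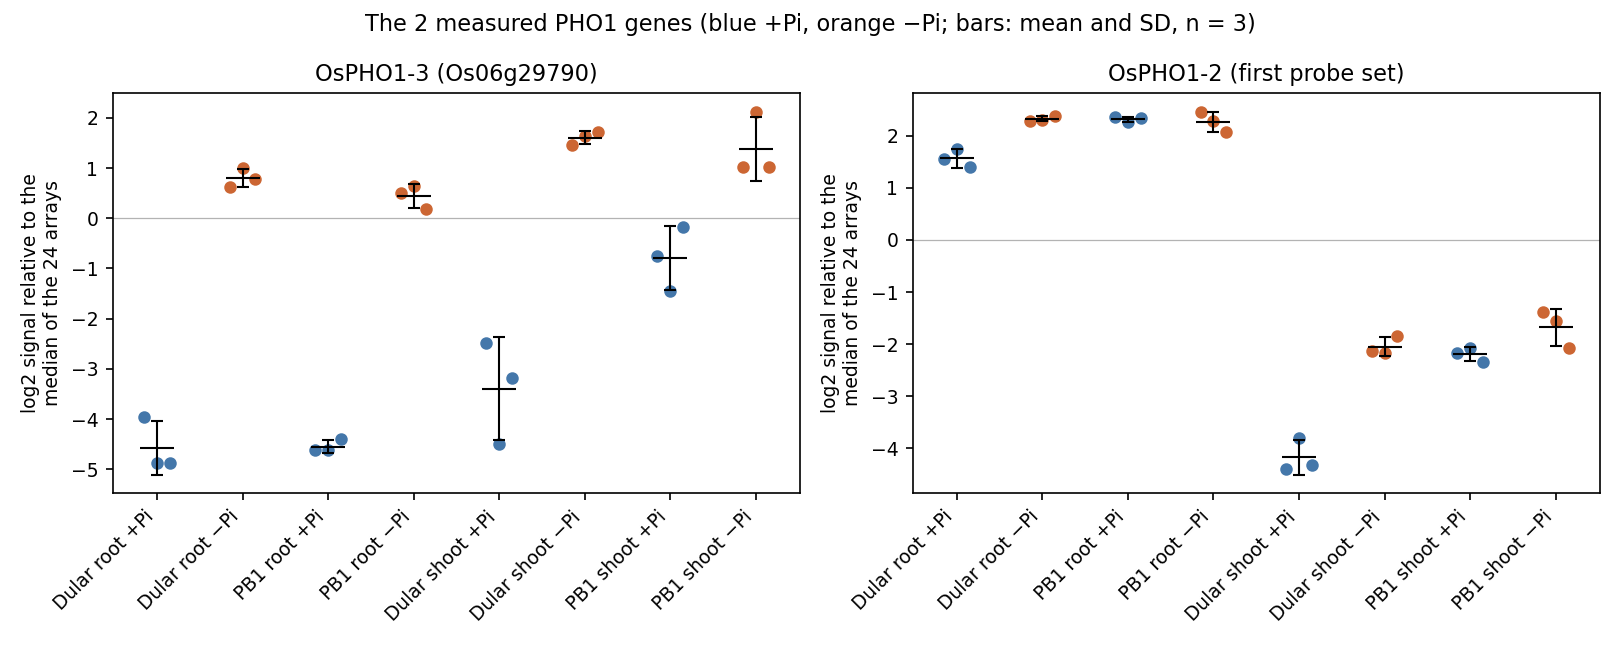
log2 signal of OsPHO1-3 (left) and of the first probe set of OsPHO1-2 (right) on each array, each relative to its own median over the 24 arrays (points: arrays, bars: mean and SD, n = 3). OsPHO1-3 separates by Pi level, and OsPHO1-2 by tissue, with root arrays at 1.39 to 2.46 and shoot arrays at -4.40 to -1.39.

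Around these genes stand the SPX proteins that sense Pi status, the PHR transcription factors they hold back, and the PHT1 transporters that take up Pi. Of 30 such genes and relatives listed, 19 had a probe set, OsPHO1-2 among them. In PB1 roots 10 of the 19 were higher at −Pi and 1, PHR3, was lower (log2 -1.01 ± 0.31 SE), a call that 5 of the alternatives ended. Of all probe sets, 2.55% were higher and 2.25% lower there. In Dular shoots 6 were higher and none lower (1.16% and 1.18% of all probe sets), and in PB1 shoots also 6 and none (0.603% and 0.564%). In Dular roots 8 were higher and none lower (4.12% and 3.44%), PT9 among them through the same table as above. The median log2 change of the 19 was 0.76 for Dular and 1.28 for PB1 in roots, and 0.25 for Dular and 0.08 for PB1 in shoots, while the median of all probe sets lay between -0.01 and 0.03. These counts take the first probe set of each gene, and for the PHT1 gene PT8 its 3 probe sets disagreed. The first was nearly flat, with log2 changes of -0.02 to 0.04, whereas the other 2 were called higher in all 4 comparisons, with changes of 1.55 to 3.93. Counting a gene by any of its probe sets gave 9 higher in roots of Dular, 11 in roots of PB1, and 7 in shoots of either genotype.

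SPX1, SPX2, SPX3 and SPX5 were called higher in all 4 comparisons and SPX4 in none. SPX5 changed by 8.58 ± 0.30 in Dular shoots and 7.6 ± 0.30 in PB1 shoots (log2, SE), where OsPHO1-3 changed by 5.0 and 2.18. The PHT1 gene PT6 changed by 8.69 ± 0.38 in PB1 roots and by 0.29 ± 0.38 in Dular shoots (limma adjusted p = 0.619). PT6 was thus called in PB1 roots and not in Dular shoots, whereas OsPHO1-3 was called in both. None of the PHR genes was called higher.

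**Figure D5:**
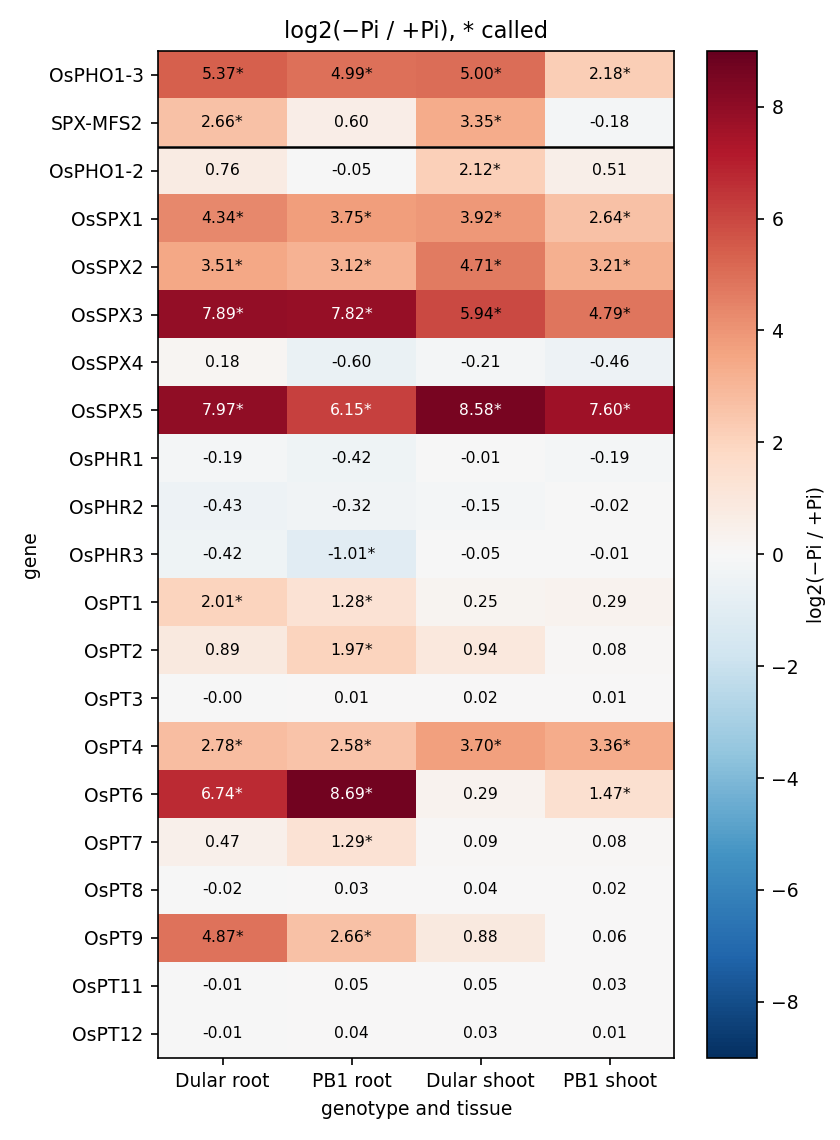
log2(−Pi/+Pi) of OsPHO1-3 and SPX-MFS2 (above the line) and of the 19 listed genes with a probe set (below it, first probe set of each) in each genotype and tissue, with an asterisk where the change was called. OsPHO1-3 is marked in all 4 columns, as are SPX1, SPX2, SPX3, SPX5 and PT4, and SPX-MFS2 in the Dular columns only. In the Dular root column the look-up fixed the rise of both genes above the line.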

How the data were processed

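RNA of roots and shoots of Dular and PB1 at +Pi and −Pi was hybridised to the Affymetrix rice genome array. The authors deposited log2 signals, summarised by GC-RMA within GeneSpring, from which each probe set's median over the 24 arrays had been subtracted. No level over background is given, so dim probe sets could not be filtered out. The table holds 57381 probe sets, of which 123 controls were left out. The group and replicate number of each array come from its title.

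Means of the 8 groups were fitted to all 24 arrays with lmFit and eBayes of limma (version 3.58.1, under R 4.3.3), the mean model of the study's three-way analysis. Each contrast was adjusted by Benjamini-Hochberg over 57258 probe sets. The prior degrees of freedom were 0.789. Called changes reached 2-fold with an adjusted p no higher than 0.05, and differences of responses by the adjusted p alone. The pipeline was tested on simulated data.

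Genes were paired with probe sets by the platform annotation, which gives 22436 probe sets 1 gene, 95 several and 34727 none, by RefSeq synonyms, and by identifiers of the study's table, whose fold changes and p-values were not used. With several probe sets, the first by suffix and number was taken. Genes named are the members, their families, up to 3 examples of the list, and the 5 most alike. The members, lists and tests were chosen with earlier results of these data known.

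The number of arrays, 3 a group, limits the precision. Alternatives were median centring, quantile normalization, a prior variance trend, array weights, fits to the same tissue or genotype or to the compared groups alone, unmoderated tests, a replicate block, leaving out flat probe sets, counting listed genes by any of their probe sets, and leaving out each array. The titles number the replicates but do not say whether arrays with the same number belong together.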

Additional observations from a re-analysis of the deposited data

Results flagged for a closer look

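Tests of the responses to low Pi called 3 differences between genotypes or tissues, and a further difference is given as a value only. For SPX-MFS2, the response of Dular exceeded that of PB1 by 3.53 ± 0.47 in shoots (log2, SE; limma adjusted p = 6.00e-04) and by 2.06 ± 0.47 in roots, a value given without a test because the look-up fixed the Dular rise. For OsPHO1-3, the response of Dular shoots exceeded that of PB1 shoots by 2.82 ± 0.60 (limma adjusted p = 0.0142). In PB1, its root response exceeded its shoot response by 2.81 ± 0.60 (limma adjusted p = 0.00984). PB1 shoots enter 3 of these differences, and their −Pi arrays agreed least among replicates. Its part in them was not tested beyond the fits given. No outlier test was run on the groups of 3 arrays, but each array was left out in turn.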

How the results depend on the processing

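Over 34 comparisons of the members, 9 settings and 24 left-out arrays, 1094 of 1118 values stayed on the same side of the threshold. In 8 of these the sign changed with no call before or after. Quantile normalization gave 3 of them, all for OsPHO1-3: 1.17 for Dular minus PB1 in roots at +Pi, -0.86 for the root difference in response, and -1.16 for root minus shoot response in Dular. The others came from leaving out 1 array. A fit to the same tissue or genotype, or to the compared groups, ended the call of OsPHO1-3 in PB1 shoots (2.18 in each, adjusted p = 0.0916 and 0.180) and of its shoot difference in response between genotypes (2.82, adjusted p = 0.146 in each). The compared groups alone also ended its call for Dular minus PB1 in shoots at +Pi (-2.60, adjusted p = 0.0551). Its root minus shoot value in Dular at +Pi, -1.18, is given without a test. That value was 0.024 after quantile normalization, a reversed sign, and -0.89 with array weights (under 2-fold). With an array left out it was -1.74 to -0.73, the latter without Dular shoot +Pi replicate 1. Fewer arrays to estimate the spread are part of these fits; the cause of the other changes was not tested.

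For SPX-MFS2, Dular minus PB1 in roots at −Pi was -1.06 with array weights, and leaving out an array gave -1.18 to -0.67. Root minus shoot in PB1 at −Pi was 0.24 to 1.09 with an array left out, and root minus shoot response in PB1 was 0.44 to 1.28. Differences that contain the Dular root response are given as values without a test. After quantile normalization, those of SPX-MFS2 were 1.49 for the root difference in response and -1.72 for root minus shoot response in Dular. The 3-factor difference, root minus shoot of the genotypes' difference in response, was -2.43 for OsPHO1-3 and -1.47 for SPX-MFS2. It was -4.03 and -2.54 after quantile normalization and -2.93 and -1.81 with array weights. With an array left out it was -1.98 to -1.13 for SPX-MFS2, the lowest without PB1 shoot −Pi replicate 2. PHR3 was not called lower in PB1 roots after quantile normalization, with the compared groups alone, or without PB1 root +Pi replicate 2 or −Pi replicate 2 or 3.

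Arrays of different groups with the same replicate number had a mean r of deviations of 0.0203, with 14 of 84 pairs over 0.1. With other numbers the mean r was -0.00998, with 17 of 168 pairs over 0.1. A replicate block changed no call of the members: with it SPX-MFS2 in Dular shoots stayed at 3.35. Neither gene has another probe set, so that alternative was run for the listed genes only.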
